A study of Mus musculus with 6 samples.

Results

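Hp, Saa3, Lrg1, Lbp, Orm1, Itih4, Hpx and Lcn2, 8 genes of the acute-phase response, were followed in alveolar type II cells of Stat3Δ/Δ and control mice. Every probe set annotated to a single member was taken, which gave 9 probe sets for the 8 genes, out of 45037 probe sets and 18193 genes on the array. Lbp had 2 probe sets and each other gene had 1, and no probe set named a member together with another gene. The Stat3Δ/Δ mice carried SP-C-rtTA and (tetO)7CMV-Cre transgenes on a Stat3flx/flx background, and in them doxycycline given to the dams drives Cre and removes a floxed exon of Stat3. The SP-C promoter restricts this to respiratory epithelial cells, so that any other cell in an isolate keeps its Stat3. The source names give the control mice both transgenes, SP-C-rtTA and (tetO)7CMV-Cre, and name no floxed Stat3 allele. The methods describe them as littermates without deletion, and their wording lets some carry a single transgene with Stat3flx/flx, so which genotype each control pool held was not settled. In the labels, 1 field gives the triple-transgenic line for them as well. All mice were 8 weeks old. Each of 3 Stat3Δ/Δ and 3 control RNAs came from type II cells pooled from 3 mice and was hybridized to its own MOE430 array.

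Acute-phase proteins are secreted in large amounts during infection or injury, above all by the liver, and several of them are also made by airway and alveolar epithelium. Interleukin-6 and related cytokines signal through the shared receptor gp130 to STAT3, which binds the promoters of many of these genes together with C/EBP and NF-kappaB factors. The proteins bind haemoglobin, haem, siderophores or bacterial lipopolysaccharide, or inhibit proteases and modulate growth factor signaling.

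The deposited values are linear MAS5 signals. Median signals ran from 337.7 to 381.2 on the Stat3Δ/Δ arrays and from 282.8 to 360.5 on the control arrays. Tests were run on quantile-normalized log2(signal + 69.9), where 69.9 is the 20th percentile of the signals, and fold changes on this scale understate those of dim genes. The brightest Stat3 probe set read between 20128 and 26285 in Stat3Δ/Δ cells and between 35080.1 and 49489 in control cells, with a log2 fold change of -0.71 (adjusted p = 0.532 from limma). Of 4 Stat3 probe sets, 2 lay lower in all Stat3Δ/Δ pools than in all control pools. The others gave -0.046 and 0.60, with overlapping groups. The place of the 4 on the transcript, inside or outside the deleted exon, is not analysed here. Titles of Stat3Δ/Δ pools 1 and 2 and of control pool 3 carry the same first number, whose meaning was not given in the sources used here. These 3 arrays are called the same-number arrays, and the other 3, Stat3Δ/Δ pool 3 and control pools 1 and 2, the remaining arrays. Among the remaining arrays the first number differs between the groups, so that number and group cannot be told apart there. The type II cell markers Sftpa1 and Sftpc stood at or above the 99.9 percentile of every array, where quantile normalization leaves little room for a difference, and had log2 fold changes of -0.038 and -0.016. Abca3, the lipid transporter of lamellar bodies, named after its value was seen, had signals of 29374, 33417 and 41560.5 in Stat3Δ/Δ pools against 54888.5, 63244 and 67886 in control pools, a log2 fold change of -0.73 (adjusted p = 0.526 from limma). RNA integrity was read from control probe sets at both ends of a transcript. For Actb the log2 3'/5' ratio averaged 0.39 ± 0.046 in Stat3Δ/Δ pools and 0.64 ± 0.17 in control pools, and for Gapdh -0.41 ± 0.099 in Stat3Δ/Δ pools and 0.020 ± 0.26 in control pools (SD, n = 3). Each gave p = 0.1 by exact permutation (two-sided), and no smaller p is possible with 3 pools a side. Its part in the differences below was not tested.

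None of the 9 probe sets differed between Stat3Δ/Δ and control cells at the thresholds of the methods (p up to 0.05, FDR up to 10%, 1.5-fold or more) in limma. Over all probe sets these thresholds called 0% as lower and 0.00222% as higher, and over genes by their brightest probe set 0% and 0.0055%. None of the 9 reached an unadjusted p of 0.05, against 8.45% of all probe sets and 7.86% of genes, and none passed p and fold without the FDR, against 4.22% of all probe sets as lower and 4.14% as higher. Under the methods' t-test no member was called either, and Hp alone reached an unadjusted p of 0.05 there. Other settings moved Hp across that line too. Its unadjusted p from limma ran from 0.00562 with a trended, robust variance model to 0.148 without Stat3Δ/Δ pool 1. No adjusted p of Hp fell below 0.357 in any alternative. Of the 8 genes 2, Hp and Lbp, were lower in each Stat3Δ/Δ pool than in every control pool, and none was higher on all 3. Groups separated in this way, with Stat3Δ/Δ lower, for 7.66% of all probe sets and 10.2% of genes, and with Stat3Δ/Δ higher for 5.99% and 4.25%. The median log2 fold change of the 8 genes was -0.15, with 5 below 0, beside -0.085 for all genes, of which 59.3% lay below 0 (51.7% of all probe sets). Without control pool 1 the median was 0.0084, and without control pool 2 it was -0.33. In cells pooled from whole isolates, fewer cells of a type and less RNA per cell cannot be told apart.

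**Figure D1:**
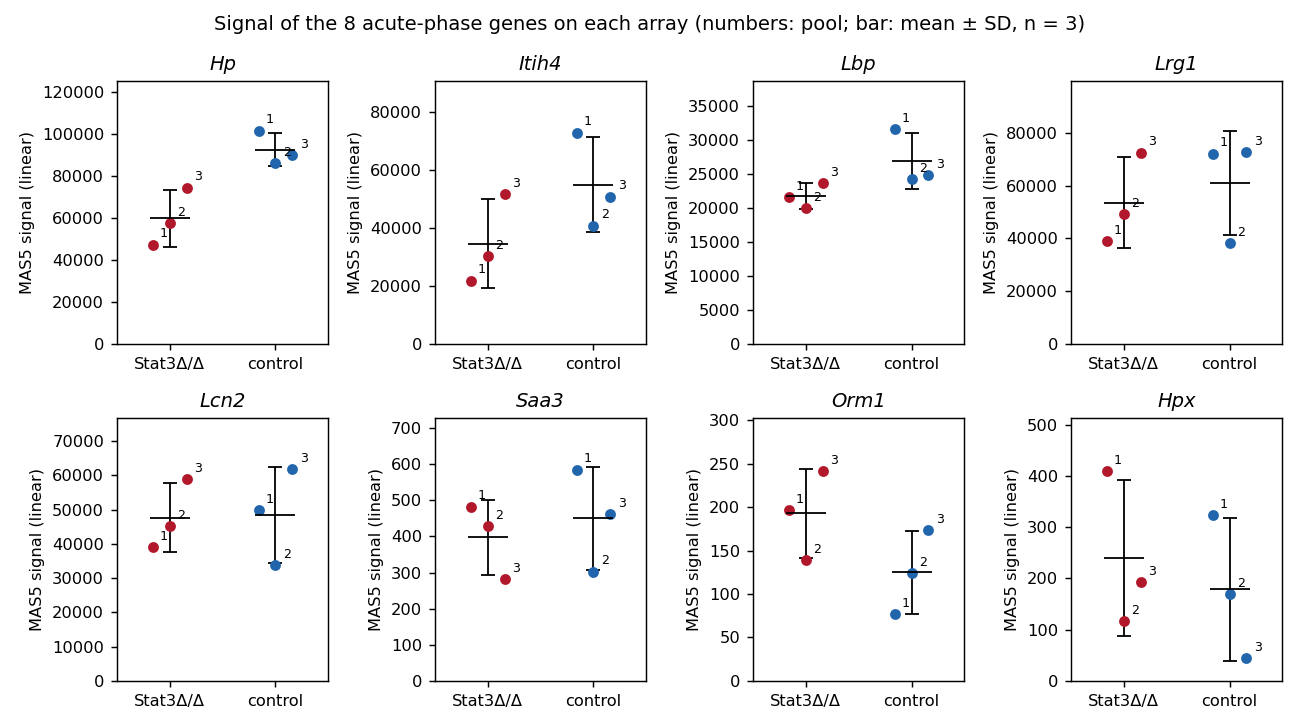
Linear MAS5 signal (vertical axes, from 0) of the brightest probe set of each gene in Stat3Δ/Δ pools (red, left) and control pools (blue, right). Points carry the pool number, and bars give the mean ± SD of 3 pools. Only Hp and Lbp show groups that do not overlap, with Stat3Δ/Δ pools lower.

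Hp encodes haptoglobin, which captures free haemoglobin. Its signal was 47468, 57707 and 74577 in Stat3Δ/Δ pools 1 to 3, against 101651, 86299.8 and 90071 in control pools 1 to 3 (probe set 1448881_at). All Stat3Δ/Δ pools lay below all control pools, with the widest gap for pool 1, and these signals stood at or above the 99.3 percentile of their arrays. Normalized log2 signals averaged 15.90 ± 0.20 in Stat3Δ/Δ pools and 16.43 ± 0.093 in control pools (SD, n = 3). The difference came to -0.53 ± 0.24 (SE of the log2 fold change, limma adjusted p = 0.61), or 69.2% of the control level (95% interval 47.0 to 102%). Hp lay below 0 in every alternative run, from -0.79 (arrays centred on their medians) to -0.43 (without Stat3Δ/Δ pool 1). With no normalization between arrays it was -0.65. Quantile normalization leaves little room for a difference among the brightest probe sets, and its part here was not tested. Hp was at -0.58 among the same-number arrays and at -0.36 among the remaining arrays. Alternatives that change only the filter, test, variance model or replicate block, or keep the brightest probe sets, cannot move any fold change. Averaging the probe sets of a gene can move only Lbp among the members. Counts of kept or turned signs, here and below, include all of these settings.

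Hpx encodes hemopexin, the plasma carrier of free haem. It gave 409.6, 117.2 and 193.0 in Stat3Δ/Δ pools and 323.3, 170.0 and 44.5 in control pools (1423944_at). The 2 groups overlapped, and the signals lay between the 14.7 and 52.8 percentiles of their arrays. The difference was 0.22 ± 0.52 on the log2 scale (SE, limma adjusted p = 0.937), and its sign turned in 4 of 19 alternatives, for example to -0.31 without control pool 3. The 95% interval reached from 50.7 to 267% of control, so neither the size nor the direction of a difference in Hpx was settled within these bounds.

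Lcn2 encodes lipocalin 2, which starves bacteria of iron by binding their siderophores, and which neutrophils also store in granules. Its signal was 39077, 45227 and 58810.2 in Stat3Δ/Δ pools, against 49901, 33823 and 61847 in control pools (1427747_a_at). The highest and the lowest of the 6 values were both controls, so the Stat3Δ/Δ pools lay inside the control range. Stat3Δ/Δ less control came to 0.12 ± 0.30 on the log2 scale (SE, limma adjusted p = 0.942), or 108.6% of control (95% interval 67.0 to 176%). It was -0.45 among the same-number arrays and 0.54 among the remaining arrays, and its sign turned with the scaling, to -0.0021 with no normalization between arrays and -0.14 with arrays centred on their medians.

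Lbp encodes lipopolysaccharide-binding protein, which hands bacterial lipopolysaccharide to CD14 and Toll-like receptor 4. Its brighter probe set (1448550_at) read 21599, 19995 and 23687 in Stat3Δ/Δ pools, against 31602, 24268 and 24860.0 in control pools. The groups did not overlap, yet Stat3Δ/Δ pool 3 lay close under control pool 2. The log2 difference of -0.23 ± 0.24 (SE, limma adjusted p = 0.824) corresponds to 85.3% of control (95% interval 58.4 to 125%), and it stayed below 0 in all 20 alternatives. The same-number arrays gave -0.24 and the remaining arrays -0.19. The dimmer probe set (1447520_at), which was designed on an expressed sequence tag, read 4338, 4725 and 1405 in Stat3Δ/Δ pools and 4943, 2214 and 4066 in control pools. Those groups overlapped, and the log2 fold change of -0.19 ± 0.50 (SE, limma adjusted p = 0.948) changed sign in 6 of 18 alternatives, so the 2 probe sets of Lbp shared a sign on average but not their order of arrays.

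Saa3 encodes serum amyloid A3, the member of that apolipoprotein family made largely outside the liver in the mouse. It read 482.4, 428.6 and 280.8 in Stat3Δ/Δ pools and 584.9, 302.6 and 462.0 in control pools (1450826_a_at). Those signals lay between the 45.7 and 63.1 percentiles of their arrays, and the groups overlapped. Its log2 fold change of -0.28 ± 0.31 (SE, limma adjusted p = 0.838) split into -0.025 among the same-number arrays and -0.65 among the remaining arrays. Single pools moved it by more than 1.5 times, to -0.11 without Stat3Δ/Δ pool 3, -0.032 without control pool 1 and -0.48 without control pool 2.

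Itih4 encodes a heavy chain of the inter-alpha-trypsin inhibitor family, secreted proteins that carry hyaluronan or inhibit proteases. Its signal was 21971, 30289.8 and 51710.1 in Stat3Δ/Δ pools, against 73011, 40937 and 50967 in control pools (1431808_a_at). Stat3Δ/Δ pools 1 and 2 lay below all controls, and pool 3 lay inside the control range. At -0.64 ± 0.34 (SE, limma adjusted p = 0.66) its log2 fold change was the lowest of the 8 genes, or 64.0% of control (95% interval 36.9 to 111%). It was -0.91 among the same-number arrays and -0.091 among the remaining arrays. With Stat3Δ/Δ pool 1 left out it came to -0.41, and without Stat3Δ/Δ pool 3 to -0.92 (unadjusted p = 0.0269, adjusted p = 0.454 from limma), and no alternative turned its sign.

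Promoter windows from RefSeq (GRCm38.p6), 250 bases before to 50 after the gene start, were matched by symbol for 5 of the 8 genes, Saa3, Lrg1, Itih4, Hpx and Lcn2. Both strands were searched for the STAT motif TTCNNNGAA, for its STAT3-preferred form TTCCNGGAA, which is a subset of it, for the C/EBP motif TTNNGNAAT and for the NF-kappaB consensus. The windows of 5 members held 1 match, a STAT motif in Itih4 that starts 51 bases before the gene start. Over all 32851 windows of this length, 8.3% held the STAT motif, 1.15% its STAT3-preferred form, 11.5% the C/EBP motif and 4.51% the NF-kappaB consensus. The window of Itih4, the member with the lowest fold change, is shown with those of Lrg1 and Lcn2, bright members with fold changes close to 0 and no match. Each is written 5′ to 3′ on the strand of the gene, with the match in capitals.
Itih4 (chr14:30886226-30886525, plus strand): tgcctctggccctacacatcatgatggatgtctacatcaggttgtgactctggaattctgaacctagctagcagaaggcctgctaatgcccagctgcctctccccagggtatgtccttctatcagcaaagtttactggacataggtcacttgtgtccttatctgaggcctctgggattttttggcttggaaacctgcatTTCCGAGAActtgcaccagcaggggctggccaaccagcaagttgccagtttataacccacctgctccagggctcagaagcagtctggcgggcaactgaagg
Lrg1 (chr17:56121897-56122196, minus strand): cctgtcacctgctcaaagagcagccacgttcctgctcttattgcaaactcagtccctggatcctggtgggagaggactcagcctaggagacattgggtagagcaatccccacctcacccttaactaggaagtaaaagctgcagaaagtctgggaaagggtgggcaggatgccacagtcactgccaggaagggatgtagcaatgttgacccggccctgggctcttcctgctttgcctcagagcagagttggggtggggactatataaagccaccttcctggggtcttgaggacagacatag
Lcn2 (chr2:32387690-32387989, minus strand): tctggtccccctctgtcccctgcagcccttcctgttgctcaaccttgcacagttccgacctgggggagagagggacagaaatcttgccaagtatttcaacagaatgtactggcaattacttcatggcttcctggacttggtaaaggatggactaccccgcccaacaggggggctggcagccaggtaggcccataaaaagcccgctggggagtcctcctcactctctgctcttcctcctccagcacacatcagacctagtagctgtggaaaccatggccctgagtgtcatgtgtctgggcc
A match is a stretch of letters and not a measured binding site, and these letters may lie outside windows of this length. Saa3 (log2 fold change -0.28) and Hpx (0.22) also had windows without a match, which are not shown. Whether a match goes with a lower fold change was not tested.

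Lrg1 encodes leucine-rich alpha-2-glycoprotein, which binds endoglin and modulates TGF-beta signaling, and which neutrophils express as well. Its signal was 39042, 49077 and 72480.4 in Stat3Δ/Δ pools, against 72094, 38232 and 72695 in control pools (1417290_at). Stat3Δ/Δ pool 3 matched the 2 brightest controls, and control pool 2 was the lowest. The groups differed by -0.062 ± 0.34 on the log2 scale (SE, limma adjusted p = 0.978), or 95.8% of control (95% interval 56.2 to 163%). It was -0.59 among the same-number arrays and 0.44 among the remaining arrays. The sign turned in 4 of 20 alternatives, to 0.097 without Stat3Δ/Δ pool 1, 0.049 without control pool 1, 0.12 without control pool 3 and 0.062 with array weights.

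Orm1 encodes orosomucoid 1, or alpha-1-acid glycoprotein, a plasma lipocalin that binds drugs and lipids. It gave 196.8, 139.4 and 241.8 in Stat3Δ/Δ pools and 76.8, 124.3 and 173.3 in control pools (1451054_at). The groups overlapped at signals between the 23.6 and 42.2 percentiles of their arrays. A log2 fold change of 0.33 ± 0.27 (SE, limma adjusted p = 0.778) resulted, with -0.066 among the same-number arrays and 0.75 among the remaining arrays. The mouse carries near-identical Orm genes, and how far the probe set tells Orm1 from Orm2 and Orm3 was not tested.

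**Figure D2:**
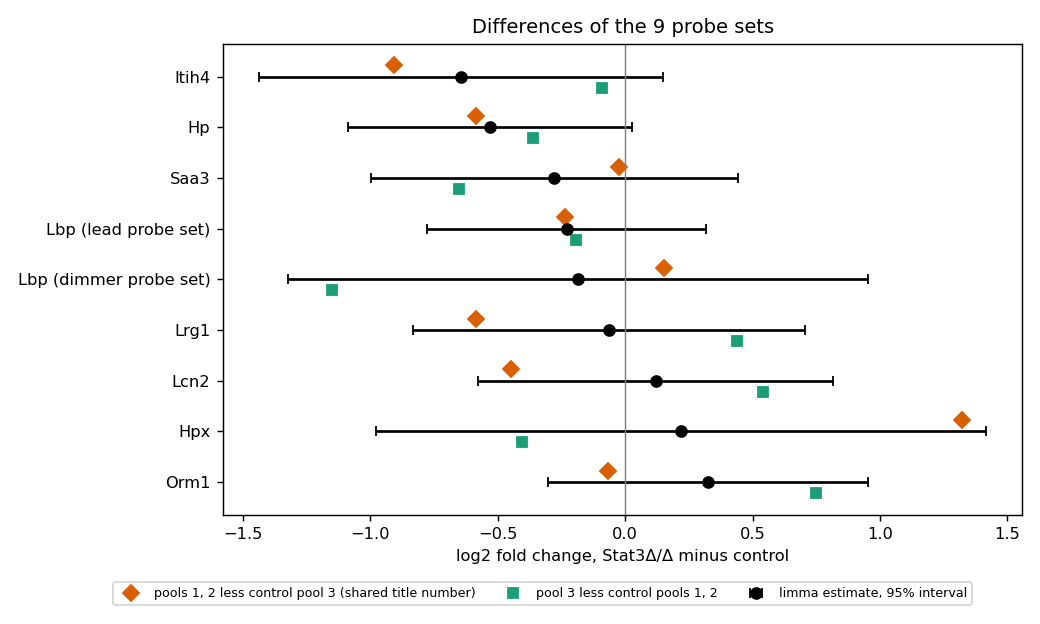
Log2 fold change, Stat3Δ/Δ minus control (horizontal axis), of the 9 probe sets. Black points are limma estimates with 95% intervals, diamonds the difference among the same-number arrays, and squares that among the remaining arrays. Every interval includes 0, and diamonds and squares lie on opposite sides of 0 for Lrg1 (-0.59 and 0.44), Lcn2 (-0.45 and 0.54), Orm1 (-0.066 and 0.75), Hpx (1.32 and -0.41) and the dimmer Lbp probe set (0.15 and -1.15).

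Among the same-number arrays, 7 of the 8 genes lay below 0, with a median of -0.34, beside -0.049 for all genes, of which 54.1% lay below 0 (49.9% of all probe sets). Hpx was the exception at 1.32. That comparison sets Stat3Δ/Δ pools 1 and 2 against control pool 3 alone, with no test. The order of arrays was alike for Hp and Itih4, whose deviations from their group means had r = 0.95 over 6 arrays, and for Lrg1 and Lcn2, with r = 0.91. These are the highest of 28 pairs of genes, and the points share the arrays and their normalization. Lrg1 and Lcn2 were both lowest in control pool 2 and highest in control pool 3, while Hp and Itih4 were both lowest in Stat3Δ/Δ pool 1 and highest in control pool 1.

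**Figure D3:**
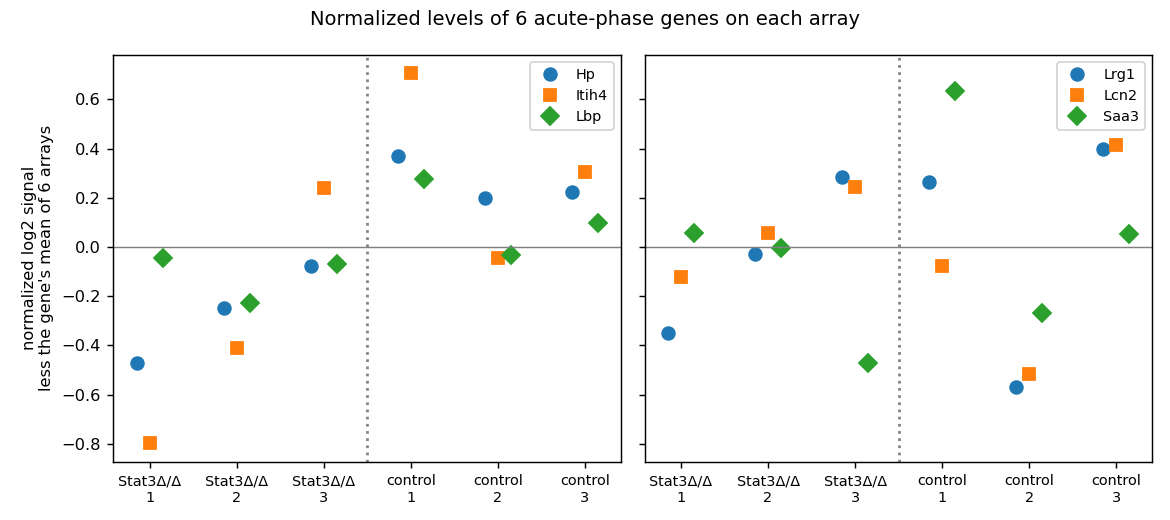
Normalized log2 signal less the gene's own mean over 6 arrays (vertical axis) on each array (horizontal axis), for Hp, Itih4 and Lbp (left) and Lrg1, Lcn2 and Saa3 (right). Stat3Δ/Δ pools stand left of the dotted line and control pools right of it. Hp lies below its mean in all 3 Stat3Δ/Δ pools, and Lrg1 and Lcn2 are lowest together in control pool 2.

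Among 11296 other genes brighter than the median signal, the profiles most like that of Hp over the 6 arrays were those of Ino80b (Pearson r = 0.998), Akr7a5 (r = 0.998) and Mst1 (r = 0.995). For Itih4 they were Alad (r = 0.997), Hdc (r = 0.993) and Lrrc56 (r = 0.993). For Lbp they were Nol3 (r = 0.995), Srcin1 (r = 0.986) and Fbf1 (r = 0.984). For Lrg1 they were Lamb3 (r = 0.991), Ppp1r3e (r = 0.985) and Prdx3 (r = 0.981). For Lcn2 they were Zfp532 (r = 0.982), Lims2 (r = 0.981) and Gphn (r = 0.978), and for Saa3 Ccdc3 (r = 0.985), Ttpa (r = 0.966) and Sfrp5 (r = 0.956). Of the 11296 genes, 611 had r over 0.9 with Hp, 628 with Itih4, 122 with Lbp, 70 with Lrg1, 39 with Lcn2 and 30 with Saa3. Group means were not removed from these profiles, so r includes the difference between the groups. The highest of 11296 values over 6 arrays are also high through their selection, and shared regulation was not tested.

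Among all genes by their brightest probe set, 5.56% passed p and fold as lower and 2.19% as higher. Of 28 other acute-phase genes measured, 3 passed p and fold as higher and 3 as lower, none passed the FDR in limma, and their median was 0.019. Cp, the copper-carrying ferroxidase ceruloplasmin, had 5879, 7502 and 10725 in Stat3Δ/Δ pools against 39119, 29347 and 34086 in control pools, or -2.07 ± 0.29 on the log2 scale (SE, limma adjusted p = 0.296). The lowest of the 8 genes, Itih4, lay at -0.64. Fgg and Fga, which encode 2 of the fibrinogen chains, had log2 fold changes of 2.38 ± 0.58 (SE, limma adjusted p = 0.464) and 2.24 ± 0.57 (SE, limma adjusted p = 0.469). Saa2, a liver serum amyloid A, gave -0.89 at signals of 103.9, 187.8 and 110.3 in Stat3Δ/Δ pools against 244.6, 211.4 and 374.1 in control pools. The others past p and fold, named after their values were seen, were the complement inhibitor gene Serping1 (-1.15) and the interleukin-1 receptor antagonist gene Il1rn (0.88). Among 8 plasma proteins that the liver lowers in the acute phase or makes constitutively, 1 passed p and fold, the apolipoprotein Apoa2 (-0.77, adjusted p = 0.515 from limma).

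Upstream, 26 genes of acute-phase induction had a median of 0.034. They are mostly cytokines, receptors and transcription factors that induce acute-phase genes, with the inhibitors Socs3 and Nfkbia among them. Of the 26, 3 passed p and fold as higher and 2, Osmr and Socs3, as lower. Osmr, the oncostatin M receptor that acts through gp130 and STAT3, gave -1.10 ± 0.26 (SE, limma adjusted p = 0.456). Lifr, the leukaemia inhibitory factor receptor, gave 0.84 (adjusted p = 0.495 from limma), Il1b, the inflammatory cytokine interleukin-1 beta, gave 1.05 (adjusted p = 0.502 from limma), and its receptor Il1r1 gave 0.96 (adjusted p = 0.529 from limma). Socs3, a feedback inhibitor that STAT3 induces, named after its value was seen, gave -0.78. Of 14 receptors and handling partners of the 8 proteins, which include Cd14, Tlr4, Eng and the lipocalin 2 receptor gene Slc22a17, none passed p and fold or an unadjusted p of 0.05 in limma, and the median was 0.049. Of 16 other secreted defence genes of lung epithelium, 2 passed p and fold as lower and none as higher, with a median of -0.20. These were Reg3g, an antibacterial lectin (-1.90, adjusted p = 0.493 from limma), and Bpifb1, a secreted lipid-binding protein of the airways (-1.45, adjusted p = 0.526 from limma).

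The methods describe the isolates as mostly type II cells, with alveolar macrophages as the main other cell. They judge purity by a stain, and report purity and cell number as not different from controls. Neutrophils also express Lcn2, Lrg1 and Hp. Beyond the brightest 2 of each list, the markers named here were chosen after their values were seen. Of 10 neutrophil markers 4 (S100a8, S100a9, Csf3r and Mmp8) passed p and fold as higher and none as lower, with a median of 0.55. Of the 10, 6 lay above 0 and 4 below, namely Elane (-0.34), Camp (-0.060), Cxcr2 (-0.0051) and Ltf. The summed signal of the 10 ran from 31662 to 36834 in Stat3Δ/Δ pools and from 19586 to 24732 in control pools. S100a8, a calgranulin, had 11124, 12892 and 9078 in Stat3Δ/Δ pools against 1814, 3885 and 5402 in control pools, while Ltf, the lactoferrin gene, also made by airway epithelium, had a log2 fold change of -0.87 (adjusted p = 0.689 from limma). Of 8 alveolar macrophage markers 3 (Marco, Cd68 and Ctsk) passed as higher and none as lower, with a median of 0.55 and summed signals of 53290.1 to 89109 in Stat3Δ/Δ pools and 37769 to 54631 in control pools. The brightest of these, Csf1r and Mrc1, gave 0.31 and 0.62. Among the same-number arrays the medians were 0.20 for neutrophil and 0.57 for macrophage markers. The part of these cells in the levels of Lcn2, Lrg1, Hp and Saa3 was not tested.

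No marker of another cell type passed the FDR. Of 7 ciliated cell markers 4 (Foxj1, Dnali1, Tekt1 and Rsph1) passed p and fold as lower, as did 4 of 7 mesothelial markers (Msln, Upk3b, Lrrn4 and Bnc1) and 5 of 9 fibroblast markers (Col1a1, Col1a2, Col3a1, Dcn and Fbln1), with medians of -1.03, -0.83 and -1.18, and none of the 3 lists held a marker past p and fold as higher. Among the same-number arrays these medians were -0.49, -1.12 and -0.37. Ciliated cell markers summed to between 23037 and 33820.2 in Stat3Δ/Δ pools and between 26610.0 and 60402.5 in control pools, and mesothelial markers to between 25489 and 40363.5 in Stat3Δ/Δ pools and between 37603 and 53449 in control pools, so that both sums overlapped between the groups. The fibroblast markers Pdgfra (0.69) and Tcf21 (0.38) and the ciliated cell marker Spag6 (0.16) lay above 0. Airway secretory markers had 2 of 7 lower (Muc5b and Reg3g) and a median of -0.42, while the brightest, Scgb1a1, gave 0.012. They summed to between 317655 and 451214 in Stat3Δ/Δ pools and between 422937 and 526133 in control pools. In fibroblasts, Col3a1 and Dcn gave -1.74 and -1.72, and the summed signal of the 9 markers ran from 5882.5 to 11472 in Stat3Δ/Δ pools and from 16763 to 33550 in control pools. Hepatocyte markers had a median of -0.15, and 6 of 7 had a mean signal under the median of all signals. Endothelial markers had a median of -0.28 with 1 of 7 lower (Vwf), lymphocyte markers 0.39 with 1 of 7 higher (Klrd1), and type II cell markers -0.038 with 1 of 7 lower (Abca3). The part of these cells in the lower signals of Hp, Itih4 and Lbp was not tested.

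**Figure D4:**
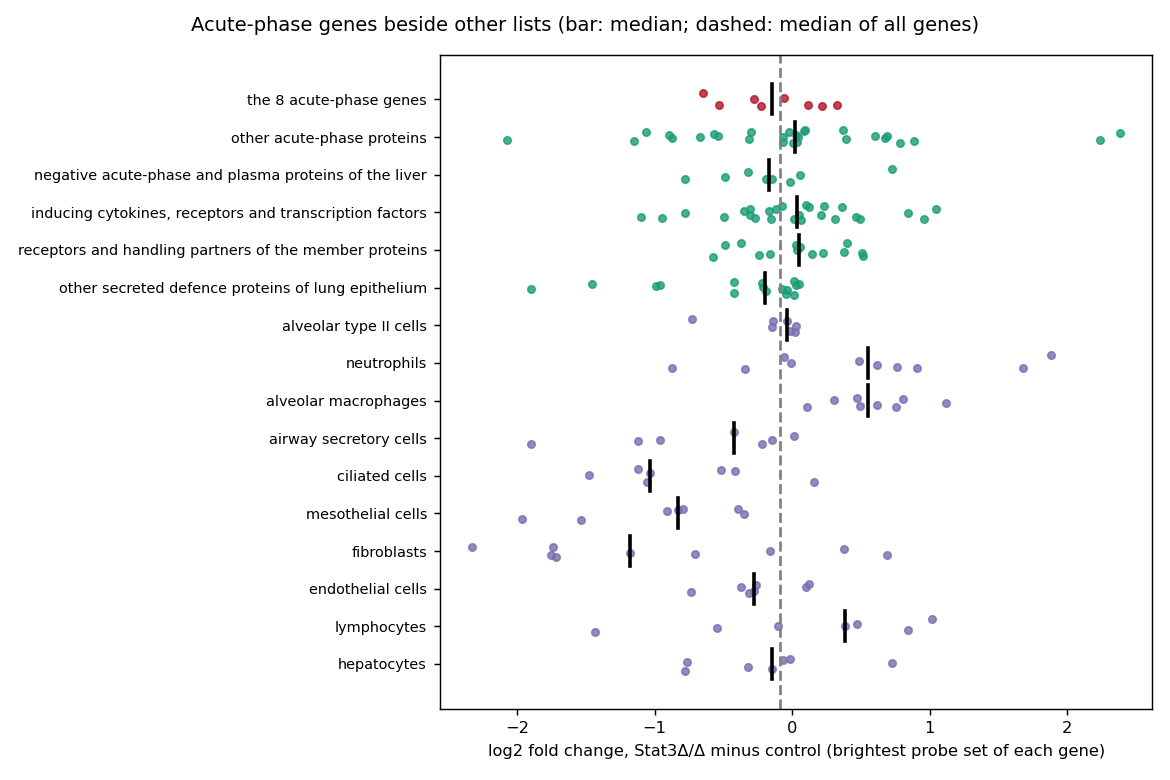
Log2 fold change, Stat3Δ/Δ minus control (horizontal axis), of the 8 acute-phase genes (red), of related gene lists (green) and of cell type markers (purple), each gene by its brightest probe set. Black bars are list medians and the dashed line is the median of all genes (-0.085). The acute-phase genes, with a median of -0.15, span -0.64 to 0.33. This range is narrower than that of the neutrophil or fibroblast markers and wider than that of the type II cell or endothelial markers.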

How the data were processed

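Type II cell RNA of 3 Stat3Δ/Δ and 3 control pools was measured on 1 MOE430 array per pool. The deposited files hold MAS5 intensity values, made by the authors and checked here to have a 2% trimmed mean of 1500 on every array. The RMA values on which the methods base their tests were not used here. Pools were grouped by title. After 64 control probe sets were left out, 69.9 was added to the signals, log2 values were quantile normalized between arrays, and 45037 probe sets were fitted with limma 3.58.1 (R 4.3.3), with Benjamini-Hochberg adjustment over all of them, at the thresholds of the methods. The fit was tested on simulated arrays with known fold changes added to a set of probe sets. Probe sets were named from the platform annotation, where 34945 name 1 gene, 932 several and 9160 none; each gene is represented by its brightest probe set. Array number limits the precision. The members, gene lists and tests were chosen with earlier results of these data known. All members are named, and of the other lists up to 4 genes past p and fold with the smallest p, the 2 brightest markers, and the 3 genes most like each bright member, besides Stat3; others are marked as chosen after their values were seen or stand without a value. Lists were described by counts and medians. Alternatives changed the pseudocount, normalization, filter, test, variance model, weights, blocks, probe set choice and pools. Stat3Δ/Δ and control pools of the same replicate number, the last number of their titles, did not deviate together (r = -0.084, -0.0088 and -0.24). These pairs are not those of the first title number, for which no such correlation was computed. Figures were drawn with matplotlib 3.10.9.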

Additional observations from a re-analysis of the deposited data

How the results depend on the processing

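No probe set of the 8 genes was called under any alternative run. At p and fold without the FDR, 0 member probe sets were lower. This became 1 with no normalization between arrays (Hp), 1 with arrays centred on their medians (Hp) and 1 with a trended, robust variance model (Itih4). Under that model Hp had an unadjusted p of 0.00562 from limma but fell short of the fold threshold. Leaving out single pools gave 0 to 2, with 2 (Hp and Itih4) without Stat3Δ/Δ pool 3. The median of the 8 genes, -0.15, was -0.34 when the title number was fitted as a block and among the same-number arrays, and leaving out single pools gave -0.33 (without control pool 2) to 0.0084 (without control pool 1). Hp, Itih4, Saa3 and the brighter Lbp probe set kept their sign in all 20 alternatives. The filter, test, variance model, replicate block and brightest probe set settings leave every fold change as it was by construction. Averaging the probe sets of a gene can move only Lbp among the members. The title-number block and the difference among the same-number arrays give the same estimate, so they do not count as separate support. Saa3 ranged from -0.48 without control pool 2 to -0.025 among the same-number arrays, against -0.28 with all pools. Lcn2 turned to -0.0021 with no normalization, -0.14 with centred arrays and -0.45 with the title number as a block and among the same-number arrays, where Orm1 turned to -0.066 and the dimmer Lbp probe set to 0.15. With array weights Lrg1 turned to 0.062, the dimmer Lbp probe set to 0.23 and Hpx to -0.031. With 1 pool left out, Lrg1 ran from -0.36 to 0.12, Lcn2 from -0.11 to 0.35, Hpx from -0.31 to 0.70 and the dimmer Lbp probe set from -0.52 to 0.35. Without the third pool of each group, a setting chosen after seeing the data, Hpx was -0.26 and the dimmer Lbp probe set 0.44. The replicate block pairs 1 pool of each group, so it cannot change a fold change but only its p. With it Hp, fixed at -0.53, had an adjusted p of 0.795 from limma, and no call changed. The filter on low signal leaves out Orm1 and Hpx, so no median was computed under it. The cause of these shifts was not tested.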

Other observations

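The 3 fibrinogen chain genes are described here after their values were seen. Fga had signals of 1376.2, 650.2 and 2911.5 in Stat3Δ/Δ pools against 328.8, 257.4 and 108.9 in control pools, and Fgg had 1376.4, 986.0 and 3409.8 against 415.8, 309.6 and 90.9, so the 2 groups did not overlap for either gene. Fgb, the third chain of the same secreted protein, read between 9.1 and 9.6 in Stat3Δ/Δ pools and between 10.8 and 14.8 in control pools, which is below the pseudocount of 69.9. Stat3Δ/Δ pool 3 gave the highest signal for Fga and for Fgg. Both are known as STAT3-induced genes of the liver, and their log2 fold changes (2.24 and 2.38) stand opposite to that of Cp (-2.07).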
